A study of Drosophila melanogaster with 3 samples.

Results

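The genes described here are the 44 protein-coding genes of Drosophila melanogaster whose symbols begin with eIF, the eukaryotic translation initiation factors, out of 13945 protein-coding genes annotated on 6 chromosome arms. They were taken by symbol alone from the gene models of the Release 6 assembly, so no measured value picked single members. The family itself was chosen with earlier results of these data known. For each gene the question was whether the transcription factor Pdp1 was found at its promoter, how strongly, and in how many replicates.

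Pdp1 binding had been measured by ChIP-seq, in which chromatin is sheared, precipitated with an antibody and sequenced. The embryos came from a transgenic fly line that makes Pdp1 with eGFP, a green fluorescent protein, at its C-terminus, and the antibody was directed against GFP. Whole embryos of both sexes, aged 0 to 24 h, were pooled, and sonication gave fragments of 200 to 800 bp. The series held 1 group of 3 biological replicates from that same line, with no second genotype, treatment or time, so all values below are descriptions of 1 condition and every value mixes all cells of the embryo. No library from flies without the tag was analysed here.

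The factor Pdp1 belongs to the PAR bZIP proteins, which bind DNA as pairs through a basic region and a leucine zipper. Initiation of translation begins when eIF2 brings the initiator methionine tRNA to the small ribosomal subunit, on which eIF1, eIF1A, eIF3 and eIF5 gather. The eIF4 factors, cap-binding eIF4E, the scaffold eIF4G and the RNA helicase eIF4A, recruit the mRNA. After scanning to a start codon, eIF5 triggers GTP hydrolysis by eIF2 and eIF5B joins the large subunit, while eIF2B reloads eIF2 with GTP for the next round. Most of these genes are used by every cell, and several have further copies in the fly genome.

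The authors' optimal peak list holds 13583 summits and is labelled as thresholded for reproducibility. How that step used the replicates is not given, and its summits need not be listed in every replicate, as at eIF3j below. A gene counted as bound when such a summit fell within 1 kb of any of its annotated transcription start sites (TSSs). At every bound eIF gene the strongest summit had the same signal and rank in the list called on the pooled replicates. The signal of a summit is the authors' own value for that peak, and a rank of 1 is the highest signal in a list. Each replicate also had a relaxed list of 30000 lines, on a signal scale of its own. The lists gave no read counts, so the depth of the libraries is unknown, and replicates were compared over the 13583 strongest lines of each. Replicate ranks and signals of a gene are those of the strongest line within 1 kb of any of its TSSs. At genes with several summits that line may belong to another summit than the one described.

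The letters under some summits are given here on the plus strand of dm6, each in 30 bases or fewer. The wide PAR bZIP pattern TTRYRYAA, where R is A or G and Y is C or T, holds the canonical site TTAYGTAA as a special case. TATCGATA, which overlaps neither, is the DNA replication-related element (DRE), a word common in promoters of housekeeping genes. In the lines that follow, capitals mark the word found. The strongest summit of eIF4E1 (chr3L:9402187-9402216) had the wide PAR bZIP pattern within 50 bp, as TTGTGCAA. Those of eIF1 (chr3L:3223034-3223063), eIF3a (chr3R:4433915-4433944), eIF3f1 (chr3R:4714172-4714201), eIF2alpha (chrX:16446988-16447017) and eIF2A (chr3L:21824865-21824894) had the DRE. The eIF1 summit lies nearer to the TSS of RpL28, and the DRE there is not within 250 bp of the TSS of eIF1. The stretches around the summits of eIF2Bbeta (chrX:2703872-2703901) and eIF4A (chr2L:5982467-5982496), the strongest of the members whose sequence is printed, are shown because none of the 3 words lay within 50 bp of them. Both genes nevertheless have the DRE within 250 bp of a TSS. The printed lines favour summits with a word. Of the strongest summits of all 22 bound eIF genes, 3 had TTRYRYAA and 5 had the DRE within 50 bp.
eIF4E1: cgcctcccctcTTGTGCAAcaaccctgttt
eIF1: ggcagggcaacTATCGATAagcatttcgta
eIF3a: cctggctgcgtTATCGATAgttcaggccga
eIF3f1: agaaaagggccTATCGATAgtgcgggtggg
eIF2alpha: gacagtggtgtTATCGATAtttaattgcgt
eIF2A: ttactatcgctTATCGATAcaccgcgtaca
eIF2Bbeta: caaacaaaatttaaaagtgcattgtgcatt
eIF4A: taatatcgctcggctgctctcgcccgttga

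Pdp1-eGFP was found at the promoters of 22 of the 44 eIF genes, 50.0% (95% Wilson interval 35.8 to 64.2), against 44.1% of all protein-coding genes. The interval for the eIF genes includes the share of all genes. Counting only optimal summits found in all 3 replicates, with a summit of each replicate within 200 bp, 21 eIF genes were bound, 47.7% against 34.2%. The 1358 strongest optimal summits reached 5 eIF genes, 11.4% against 9.26%. These 5 were eIF2Bbeta, eIF6, eIF4A, eIF2Bdelta and eIF4E1. The strongest summit of a bound eIF gene had a median signal of 535 and a median rank of 3568, with a range of signals from 205 to 5742. Over all 6148 bound genes the median signal was 462 and the median rank 4350. A bound eIF gene had 1.32 promoter summits on average against 1.54 over all bound genes, with 15 eIF genes having 1 summit and 7 having more.

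**Figure D1:**
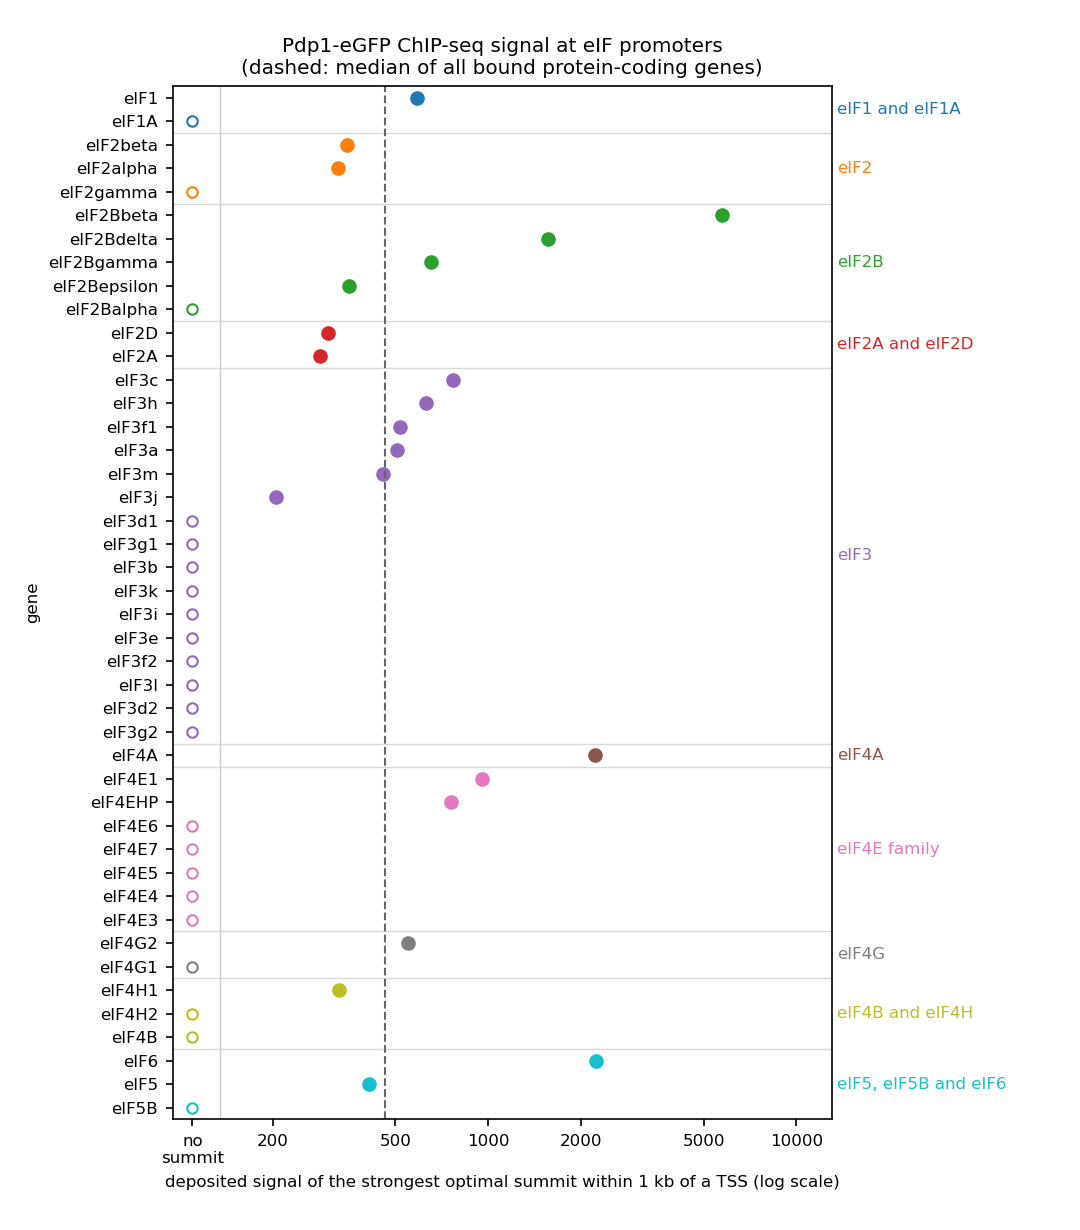
Deposited signal of the strongest optimal summit within 1 kb of a TSS (log axis) for each of the 44 eIF genes, grouped and coloured by factor; open circles at the left mark genes with no such summit. The dashed line is the median over all bound protein-coding genes, 462, and eIF2Bbeta, eIF6 and eIF4A stand farthest to its right.

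Both small factors of the scanning ribosome were examined first. The promoter of eIF1, which guards the choice of the start codon, held a summit at chr3L:3222883-3223158 with a signal of 590 (rank 3073), outside annotated genes and 317 bp upstream of the TSS. The same summit lay 64 bp from the TSS of RpL28, a ribosomal protein gene that runs the other way with its TSS 381 bp from that of eIF1. The strongest line near eIF1 ranked 5167, 1784 and 2474 in replicates 1, 2 and 3. A weaker optimal summit of signal 246 lay 357 bp downstream of the TSS of eIF1. The gene of eIF1A, the partner of eIF1, was not bound at its promoter. Its nearest summit lay in an intron 2200 bp downstream of the TSS, with a signal of 788 (rank 1825), and carried the wide PAR bZIP pattern. A line near the eIF1A promoter was among the strongest of replicate 3 (rank 6267), lay far down the list of replicate 2 (rank 24636) and was absent from that of replicate 1.

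Of the 3 subunits of eIF2, the GTP-binding carrier of the initiator tRNA, eIF2alpha and eIF2beta were bound, both below the median signal of all bound genes. The summit of eIF2alpha, the subunit phosphorylated by stress kinases, lay 32 bp upstream of its TSS at chrX:16446954-16447103, with a signal of 327 (rank 6878) and ranks of 9339, 6520 and 3905 in the 3 replicates. The summit of eIF2beta lay in the 5' UTR, 38 bp downstream of the TSS at chr3L:12526519-12526781, with a signal of 348 (rank 6415) and replicate ranks of 7769, 6009 and 4086. Both summits were found in all 3 replicates, ranked best in replicate 3 and lowest in replicate 1.

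The gene of eIF2gamma, the subunit that binds GTP and the tRNA, was listed in the replicates but not in the joint lists. Lines lay 58, 52 and 3 bp upstream of its TSS in replicates 1, 2 and 3, with signals of 194, 124 and 57.3 and ranks of 7277, 4260 and 6621, all among the 13583 strongest. Neither the optimal list nor the list of 30000 lines called on the pooled replicates held a summit within 1 kb of this TSS. A strong optimal summit of signal 2517 (rank 164) lay 2352 bp upstream at chr3R:15265416-15266099. Of all protein-coding genes, 56 (0.402%) were near a strong line in all 3 replicates without an optimal summit, and 28 (0.201%) had no pooled line either. The gene Set starts 94 bp away on the other strand.

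The genes of eIF2B, the exchange factor that returns eIF2 to its GTP-bound form, included the strongest summit of all eIF genes. Of its 5 subunit genes 4 were bound, 80.0% (95% Wilson interval 37.6 to 96.4, which includes the 44.1% of all genes). At eIF2Bbeta, a regulatory subunit, the summit at chrX:2703636-2704157 had a signal of 5742 and ranked 11 of all optimal summits. It ranked 40, 3 and 13 in replicates 1, 2 and 3, with signals of 2418, 2421 and 925 on the scale of each list. This summit lay 684 bp upstream of eIF2Bbeta and 35 bp from the TSS of Ugalt, which encodes a UDP-galactose transporter and starts 719 bp from eIF2Bbeta on the other strand. With a TSS window of 500 bp, or with each summit given to its nearest TSS alone, eIF2Bbeta was no longer called bound.

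At eIF2Bdelta, another regulatory subunit, the summit at chr2R:23386060-23386650 had a signal of 1564 (rank 495), with replicate ranks of 477, 889 and 381 and signals of 950, 324 and 295. It lay 147 bp upstream of eIF2Bdelta, in the 5' UTR of roh and 57 bp from the TSS of roh, whose start is 58 bp from that of eIF2Bdelta on the other strand. The summit of eIF2Bgamma, part of the catalytic module, lay 67 bp upstream of its TSS at chr2R:15542439-15542742, with a signal of 652 (rank 2570) and replicate ranks of 2831, 3359 and 2558. The gene of eIF2Bepsilon, which holds the exchange activity, had a summit 85 bp upstream at chrX:1922833-1923073 with a signal of 355 (rank 6259), 22 bp from the TSS of Ocrl, an inositol lipid phosphatase gene that starts 107 bp away on the other strand. It ranked 10900, 4206 and 2095 in the 3 replicates, lowest in replicate 1. The remaining subunit gene, eIF2Balpha, had no line in any replicate list, and its nearest optimal summit was 40349 bp away. At eIF2Bbeta, eIF2Bdelta and eIF2Bepsilon the summit was thus nearer to the start of another gene, and only eIF2Bgamma of the 4 had its own TSS as the nearest.

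The genes of eIF2A and eIF2D, which can deliver initiator or other tRNAs without eIF2 in mammals, were both bound and both weak. The eIF2D summit (chr3R:29151785-29151909, 70 bp upstream) had a signal of 303 (rank 7563) and replicate ranks of 10821, 4881 and 6300. The eIF2A summit (chr3L:21824815-21825003, in the 5' UTR, 53 bp upstream of the nearest of its TSSs) had a signal of 285 (rank 8050) and replicate ranks of 8114, 10954 and 7487. Both had lower signals than every other bound eIF gene except eIF3j.

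Of the 16 genes of eIF3, the large scaffold on the small ribosomal subunit, 6 were bound, 37.5% (95% Wilson interval 18.5 to 61.4, which includes the 44.1% of all genes). None of the 16 had 1 of the 1358 strongest summits, which reached 9.26% of all genes. The gene of eIF3c, a core subunit, had a summit 2 bp upstream of its TSS at chr2R:17665409-17665829, with a signal of 769 (rank 1906). Its replicate ranks were 3565, 746 and 5856, with signals of 341, 354 and 63.2. CCHa1-R, a neuropeptide receptor gene, starts 610 bp from eIF3c on the other strand. The gene of eIF3a, another core subunit, had a summit 31 bp upstream at chr3R:4433818-4434063 with a signal of 507 (rank 3847) and replicate ranks of 4820, 3818 and 3142. CG1074 starts 70 bp from it on the other strand. The genes of the further core subunits eIF3b, eIF3g1 and eIF3i had no promoter summit, with their nearest at 1747, 1395 and 3752 bp.

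The gene eIF3h had a pair of summits of like strength. One, of signal 629 (rank 2720) in an intron 262 bp downstream of the TSS at chr2L:5052330-5052623, was found in 2 replicates, and the other, of signal 615 (rank 2854) and 21 bp downstream of the TSS, in all 3. The strongest line near eIF3h ranked 2948, 1875 and 1577, and senju starts 63 bp away on the other strand. At eIF3f1 the summit (chr3R:4714144-4714375, 37 bp upstream) had a signal of 519 (rank 3720) and replicate ranks of 4972, 2717 and 4521. At eIF3m the strongest summit had a signal of 455 (rank 4452) and lay 147 bp upstream at chr2R:14164865-14165166, which is 79 bp from the TSS of CG8323 on the other strand. The strongest line near eIF3m ranked 5606, 2633 and 4596 in the replicates. The genes eIF3f1 and eIF3m were also the 2 members (4.55%, against 0.932% of all genes) with the letters of a TCT initiator, YYCTTTYY, within 5 bp of a TSS, an initiator known from ribosomal protein genes.

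The gene eIF3j, a loosely attached subunit, was the weakest bound member. Its summit, in the 5' UTR 6 bp downstream of the TSS at chr2R:9968852-9969287, had a signal of 205 (rank 11024). It was found among the strongest lines of replicate 3 alone (rank 5979), ranked 15130 in replicate 1 and was not listed in replicate 2. The 10 eIF3 genes without a promoter summit were eIF3b, eIF3d1, eIF3d2, eIF3e, eIF3f2, eIF3g1, eIF3g2, eIF3i, eIF3k and eIF3l. Among them eIF3d1, eIF3k, eIF3i and eIF3e had a line among the strongest 13583 of replicate 3 only, at ranks 3670, 3624, 12502 and 7386, and no line or one below rank 13583 in the other replicates.

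The group that brings in the mRNA held strong and absent binding side by side. The helicase gene eIF4A had a summit at chr2L:5982227-5982733 of signal 2214 (rank 233), in its 5' UTR and 112 bp upstream of the nearest of its TSSs. Its ranks of 253, 243 and 237 lay close together, with signals of 1259, 602 and 357. A weaker summit of signal 278 (rank 8279) lay 104 bp from a TSS, and chic, the profilin gene, starts 746 bp from eIF4A on the other strand.

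Among the 7 genes of the eIF4E family, which bind the mRNA cap, only eIF4E1 and eIF4EHP were bound. That is 28.6% (95% Wilson interval 8.22 to 64.1, which includes the 44.1% of all genes). At eIF4E1, the general cap-binding factor, 2 summits shared the interval chr3L:9401988-9402623. The stronger, of signal 958 (rank 1270), lay 1 bp upstream of a TSS in the 5' UTR, and the other, of signal 614 (rank 2859), 30 bp downstream. Replicate ranks were 1426, 1421 and 1518, with signals of 565, 250 and 145, so the gene stood at nearly the same place in every list. At eIF4EHP, a cap-binding protein that represses maternal mRNAs in the fly embryo, a pair of summits of signal 760 (rank 1944) and 667 (rank 2483) shared the interval chr3R:24108889-24109413. The stronger was 138 bp upstream of the TSS, and CG18428 starts 376 bp away on the other strand. The strongest line near eIF4EHP ranked 4231, 565 and 2539 in replicates 1, 2 and 3. The genes eIF4E3, eIF4E4, eIF4E5, eIF4E6 and eIF4E7 had no summit within 1 kb. The strongest line near eIF4E3, which is required in the male germ line, ranked 3721 in replicate 1 and 23839 in replicate 2 and was not listed in replicate 3.

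The scaffold genes eIF4G1 and eIF4G2 differed in the optimal list. At eIF4G2, which is needed for male meiosis, the summit (chr3R:23819076-23819621, 120 bp upstream and in an intron of another gene) had a signal of 552 (rank 3417) and replicate ranks of 3023, 5176 and 4944. The general factor eIF4G1 had no optimal summit within 1 kb and its nearest was 6608 bp away. A line near eIF4G1 ranked 8234 in replicate 3 and 15830 in replicate 2, and none was listed in replicate 1. Of the helpers of the helicase, eIF4H1 had a summit 143 bp downstream of its TSS in an intron (chrX:16448691-16448834), with a signal of 329 (rank 6828) and replicate ranks of 5971, 7678 and 8032, and CG34015 starts 363 bp away on the other strand. Neither eIF4H2 nor eIF4B was bound, and the nearest optimal summit to eIF4B, on arm 3L, was 588688 bp away.

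Late factors and ribosome partners followed the same mixed picture. The gene of eIF6, which keeps the large ribosomal subunit from joining too early, had the second strongest summit of the eIF genes, of signal 2235 (rank 229), at chr2R:23850191-23850604, 101 bp upstream of its TSS and in an intron of ytr. Its replicate ranks were 531, 71 and 240, with signals of 906, 977 and 355. Near eIF5, the activator of GTP hydrolysis by eIF2, the strongest line ranked 5967, 5229 and 3971 in replicates 1, 2 and 3. The strongest optimal summit of eIF5 had a signal of 410 (rank 5156). It lay 787 bp upstream at chrX:15992601-15992927, in the 5' UTR of exd, a homeodomain gene, 61 bp from the TSS of exd. The summit next to the TSS of eIF5 itself, 4 bp upstream, had a signal of 192 (rank 11665). The promoter of eIF5B, the GTPase of subunit joining, had no optimal summit, although a line there ranked 2500 in replicate 2 and 11535 in replicate 3, with none in replicate 1.

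The 1 kb limit divided few genes. Just inside it were eIF2Bbeta, with its nearest optimal summit at 684 bp, and eIF1 at 317 bp, and just outside were eIF3d1 at 1288 bp, eIF3g1 at 1395 bp and eIF3b at 1747 bp from their nearest optimal summit. Nearest summits of the other unbound members lay from 2200 bp to 588688 bp away.

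Of the numbered gene copies other than first ones, eIF4G2 was bound, and eIF3d2, eIF3f2, eIF3g2, eIF4H2 and eIF4E3 to eIF4E7 were not. These 9 unbound copies had their nearest optimal summits 4955 to 75366 bp away. Among the 9, 6 had no line within 1 kb in any replicate list, and the exceptions were eIF4E3, eIF4E6 and eIF3g2. The share of all genes without such a line is not given here. Each of the 9 has 1 TSS, and 36.1% of all protein-coding genes with 1 TSS were bound. The first copies eIF3f1, eIF4E1 and eIF4H1 were bound and eIF3d1, eIF3g1 and eIF4G1 were not. This grouping was made with the calls known and was not tested.

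Replicates gave different counts of eIF genes near a strong line. In replicate 1 there were 23 (52.3%, against 42.1% of all genes), in replicate 2 there were 25 (56.8% against 47.5%) and in replicate 3 there were 31 (70.5% against 48.3%). The mean was 26.3 ± 4.16 genes (SD, n = 3), or 59.8% ± 9.46, against 46.0% ± 3.35 for all protein-coding genes. All 3 replicates had a strong line at 22 eIF genes (50.0% against 36.4%), none had one at 11 (25% against 44.2%), and replicate 3 alone had one at 7 (15.9% against 3.92%). Those 7 were eIF1A, eIF3d1, eIF3e, eIF3i, eIF3j, eIF3k and eIF4G1, of which 5 encode eIF3 subunits. Replicate 1 alone had a strong line at eIF4E3, replicate 2 alone at eIF3b, and replicates 2 and 3 together at eIF5B and eIF3g1.

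**Figure D2:**
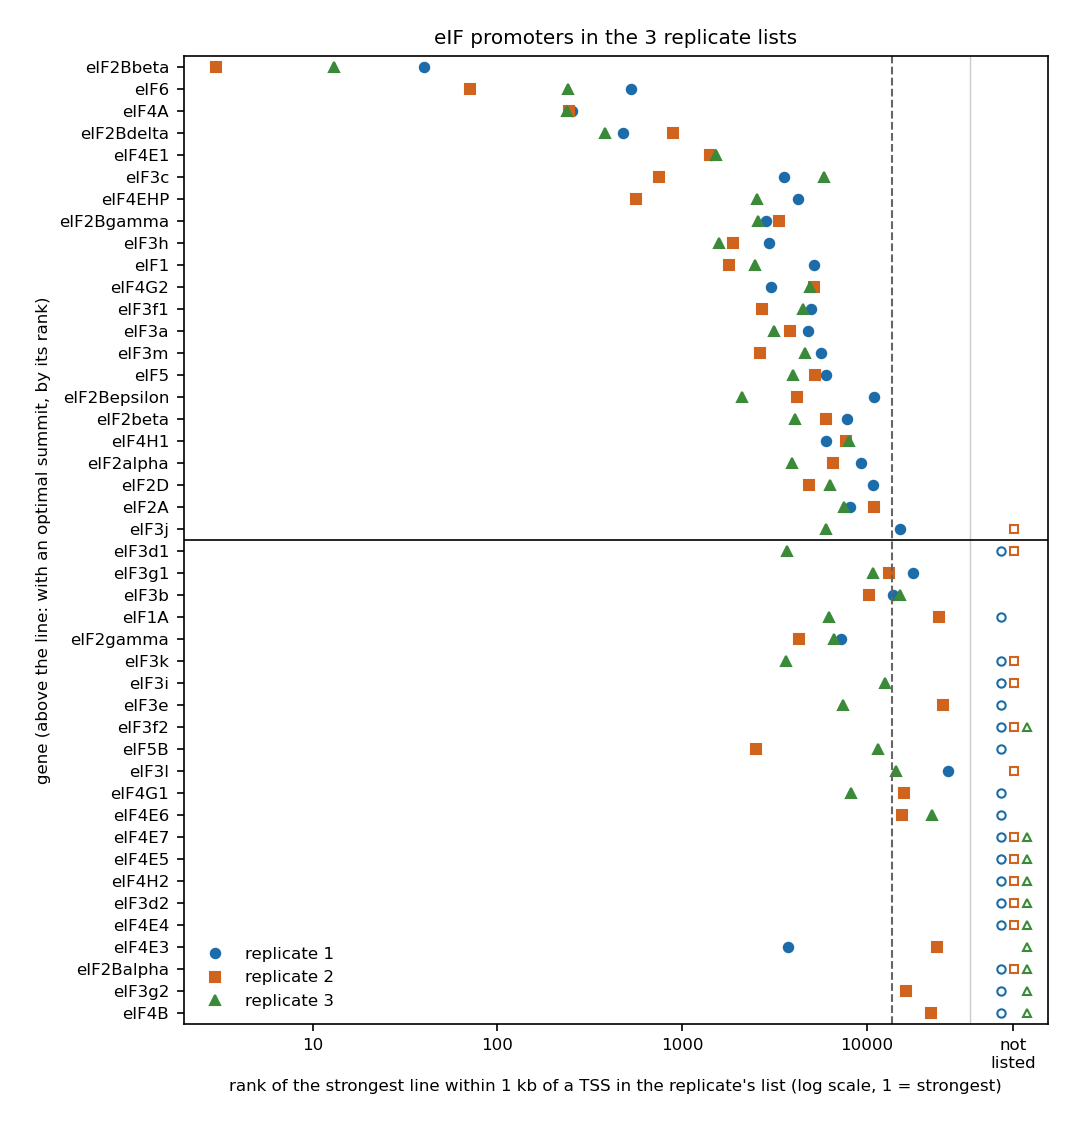
Rank of the strongest line within 1 kb of a TSS in each of the 3 replicate lists (log axis, 1 is strongest) for the 44 eIF genes, with genes that have an optimal summit above the horizontal line; open symbols at the right mark genes not listed. The dashed line is rank 13583, and 22 eIF genes have all 3 symbols to its left, including eIF2gamma from below the horizontal line.

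Ranks of the eIF genes were similar between replicates, as they were over all genes. Spearman's rho was 0.748 between replicates 1 and 2 (25 genes listed in both), 0.781 between 1 and 3 (26 genes) and 0.759 between 2 and 3 (29 genes). Over all listed genes it was 0.747, 0.839 and 0.825. These are descriptions across genes, which share libraries and are not independent replicates. The bound eIF genes had median ranks of 4896, 2717 and 3524 among those listed in replicates 1, 2 and 3. Of the 21 bound eIF genes listed in all 3, 14 (66.7%) ranked lower in replicate 1 than in both other replicates, against 47.9% of all such genes, and 2 (9.52% against 24.5%) ranked higher there.

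Summits at eIF genes lay close to the TSS. The median distance of the strongest summit was 93.0 bp, against 195 bp over all bound genes. Within 100 bp were 11 of the 22 (50.0% against 32.9%) and within 250 bp were 18 (81.8% against 57.6%). The summit was upstream at 18 genes (81.8% against 68.0%) and downstream at 4, which were eIF3h, eIF4H1, eIF2beta and eIF3j. By annotation at the summit itself, 11 lay outside genes, 7 in a 5' UTR, 4 in an intron and 0 in a coding exon or 3' UTR. The eIF genes had as many TSSs per gene as all genes, 1.41 on average, and their median length was 1968 bp against 2166 bp.

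**Figure D3:**
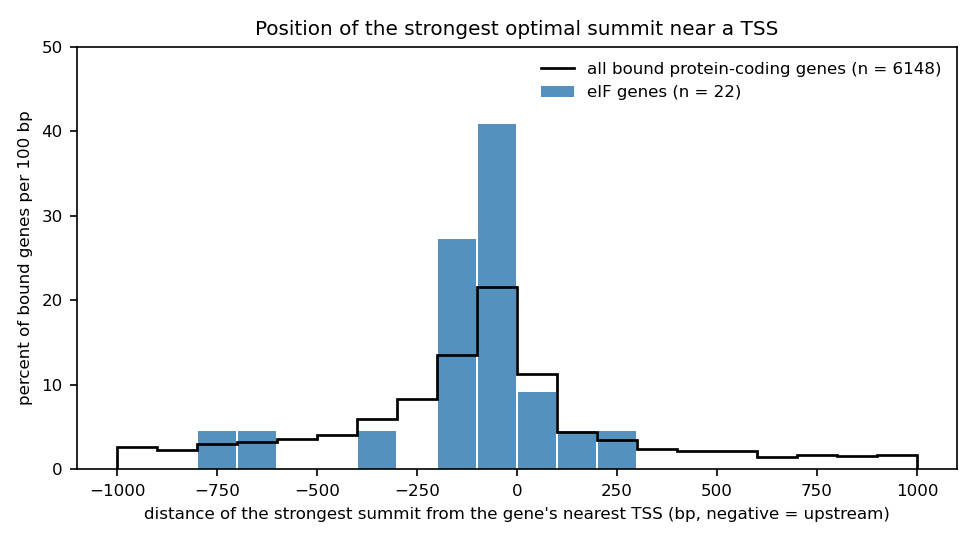
Position of the strongest optimal summit relative to the nearest TSS of the gene, in bins of 100 bp (negative is upstream), as percent of bound genes: blue bars for the 22 bound eIF genes and the black line for all 6148 bound protein-coding genes. Of the eIF summits, 18 fall within 250 bp of the TSS, and 18 of 22 are upstream.

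Genes with more TSSs were bound more often, among eIF genes as among all genes. Of 29 eIF genes with 1 TSS, 11 were bound (37.9% against 36.1% of all such genes), of 13 with 2 TSSs, 9 (69.2% against 60.4%), and of 2 with 3 or more, both (79.1% of all such genes). Many eIF promoters are shared with a neighbour. Of the 44, 21 had a gene on the other strand starting within 1 kb, in head-to-head order (47.7% against 36.2% of all genes). Among these 21, 12 were bound (57.1% against 64.7% of all such genes), and among the other 23, 10 were bound (43.5% against 32.4%). At 6 of the 22 bound eIF genes the TSS of another gene lay nearer to the strongest summit. They were eIF2Bbeta, eIF2Bdelta, eIF2Bepsilon, eIF1, eIF3m and eIF5, and at these a summit cannot be assigned to either gene from its position.

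The PAR bZIP pattern was seen at few eIF promoter summits. TTRYRYAA lay within 50 bp of 3 of the 29 summits, 10.3% (95% Wilson interval 3.58 to 26.4), against 26.1% (25.1 to 27.1) of 6919 promoter summits of all protein-coding genes, a share just inside that interval. In windows of the same width 300 bp away the shares were 6.90% and 4.67%. The 3 summits were those of eIF4E1, shown above, eIF2Bgamma and eIF2Bdelta, and the last held the canonical TTAYGTAA, at 1 of 29 summits (3.45%, interval 0.611 to 17.2, against 8.34%). Counted by gene, 3 of 44 eIF genes (6.82%) had a promoter summit with TTRYRYAA, against 15.0% of all genes. The strongest lines of replicates 1, 2 and 3 near eIF genes gave 13.8%, 14.3% and 12.5%, a mean of 13.5% ± 0.922 (SD, n = 3), against 29.7%, 19.1% and 18.1% at all promoters. With windows of 100 bp on each side the eIF share rose to 24.1%, against 31.6% of all promoter summits.

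The DRE was at 5 of the 29 summits, 17.2% (95% Wilson interval 7.60 to 34.5), against 3.54% (3.13 to 4.0) of all promoter summits. These 5 were the eIF1, eIF3a, eIF3f1, eIF2alpha and eIF2A summits shown above, with the middle of the word 3.50 to 32.5 bp from the summit. No eIF window 300 bp away held it, against 0.780% of such windows for all promoters. In the replicates the share was 24.1%, 17.1% and 12.5%, a mean of 17.9% ± 5.86 (SD, n = 3), against 3.08%, 4.03% and 3.34% at all promoters. The share followed the window, with 3.45% against 1.72% within 25 bp, where the eIF interval of 0.611 to 17.2 includes the share of all promoters, and 24.1% against 6.01% within 100 bp. Bound and unbound eIF genes both carried the word. It lay within 250 bp of a TSS at 13 of 44 eIF genes (29.5%, against 10.5% of all genes). Of these 13, 8 were bound (61.5%, against 66.0% of all genes with the word so placed) and 5 were not. The word at the eIF1 summit, which lies nearer to RpL28, is not among these. Over all genes it stood at 15.7% of bound and 6.40% of unbound genes. A match of letters describes the sequence and does not show which protein sits there. All intervals cover counting of summits only.

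**Figure D4:**
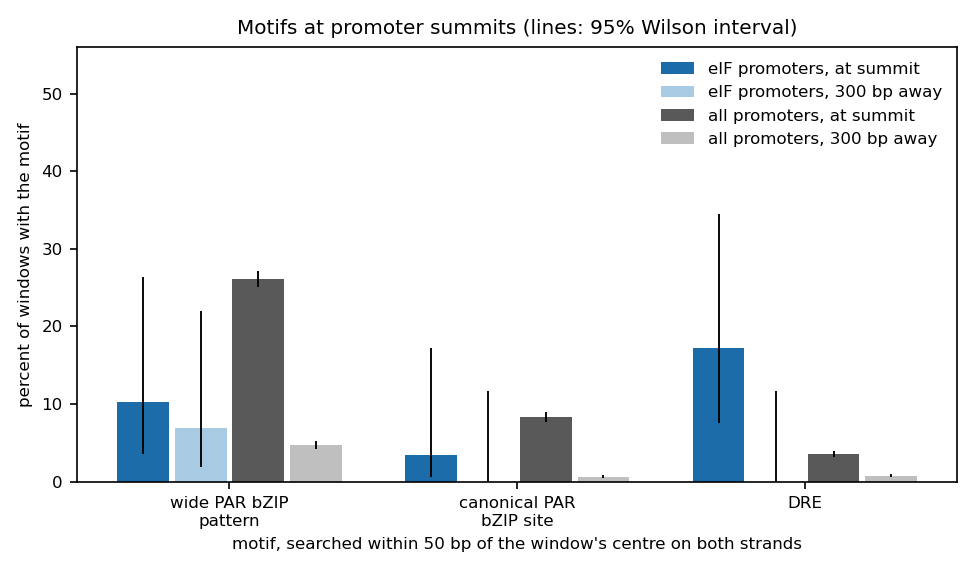
Percent of windows with each of 3 words within 50 bp of the centre, for 29 eIF promoter summits (blue) and 6919 promoter summits of all genes (dark grey), and for windows 300 bp away (pale); vertical lines are 95% Wilson intervals. The wide PAR bZIP pattern is at 10.3% of eIF summits against 26.1% of all, and the DRE at 17.2% against 3.54%.

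Some eIF genes had their stronger summits inside the gene or just beyond its end. When summits in the whole gene body and 1 kb on either side were counted, 25 eIF genes (against 52.5% of all genes) had at least 1. The longest of them, eIF4EHP at 45.9 kb, had 11 summits, 4 of them with TTRYRYAA, and the strongest lay in an intron at chr3R:24105602-24106610 with a signal of 1418 (rank 609). The eIF5B gene, 32.3 kb long and without a promoter summit, had 7, 2 of them with TTRYRYAA, the strongest being intronic with a signal of 456 (rank 4440). At eIF1A the intronic summit described above was stronger than that at the promoter of its partner eIF1. The strongest summits counted for eIF3c (signal 835), eIF2beta (736), eIF2A (433) and eIF3j (271) lay not inside these genes but within 1 kb beyond their ends.

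Regulators of initiation, a list of 19 genes outside the eIF symbols, were bound at 17 (89.5%, 95% Wilson interval 68.6 to 97.1, against 44.1% of all genes). Of the 19, 16 were bound by a summit found in all 3 replicates (84.2%, against 34.2% of all genes). The 2 without a promoter summit were DENR, a reinitiation factor, and Gcn2, a kinase of eIF2alpha. The 6 strongest were larp, an RNA-binding protein gene (signal 5869, rank 10), Lk6, which encodes a kinase that phosphorylates eIF4E (5290, rank 16), pAbp, the poly(A)-binding protein (1597, rank 477), bel, an RNA helicase (1131, rank 945), Paip2, a partner of pAbp (716, rank 2186), and Thor, the binding protein that holds eIF4E away from eIF4G (641, rank 2637). The Thor summit lay 24 bp downstream of a TSS, with replicate ranks of 3194, 3433 and 1253. Their median signal, 462, equalled that of all bound genes, and they had 2.32 TSSs per gene and a median length of 6354 bp, against 1.41 and 1968 bp for the eIF genes. The part of the number of TSSs in the higher count was not tested. This list was drawn up with earlier results of these data known, so its share and interval are descriptions only.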

How the data were processed

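The data were ChIP-seq peak lists on dm6, called by the authors against a control alignment for each of 3 biological replicates and for the pooled replicates, as relaxed lists of 30000 lines, with an optimal list of 13583 summits derived from them, per the deposited file records. What aligner, caller and version of the reproducibility test (IDR) served is not given in the sources used here. Each peak's deposited signal is the authors' value relative to the control, on a scale that differs between lists, so peaks were ranked by it within 1 list only. Lists on dm3 were not used and no coordinates were converted. No read counts were given, so depth is unknown and Wilson intervals cover counting alone.

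A TSS was any annotated 5' end of a transcript in the Ensembl release 115 models of the Release 6 assembly, and sequence came from the RefSeq Release 6 genome. None of the intervals ran past an arm end (0 found). A summit counted as found in a replicate when 1 of its 13583 strongest lines lay within 200 bp. On both strands, words were looked for up to 50 bp from each summit. Joins and searches were checked on planted data (Python 3.11.15, numpy 2.4.6, pandas 2.3.3, scipy 1.17.1, matplotlib 3.10.9). With 1 group no test was made. Every eIF gene was named, with full values for the bound ones, along with neighbours whose TSS lay nearer to the summit or head-to-head within 1 kb, and up to 6 genes of each other list. The members, lists and words were chosen with earlier results of these data known. Sequence from arm 2R is not printed.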

Additional observations from a re-analysis of the deposited data

How the results depend on the processing

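The count of 22 bound eIF genes out of 44 stayed within 1.5 times under all 12 alternatives. That limit covers the count alone and not its comparison with all genes, whose share, given in brackets, also moved with the setting. The eIF count was 20, 21 and 25 with TSS windows of 250 bp, 500 bp and 2 kb (all genes 31.0%, 38.0% and 51.7%). It was 18 with the nearest TSS alone (35.2%), 17 with the stronger 50% of summits (29.7%) and 26 in the pooled relaxed list (55.1%). Without replicates 1, 2 and 3 in turn it was 21 each time (37.4%, 37.0% and 35.9%). The narrowest window lost eIF1 and eIF2Bbeta, and the nearest TSS alone lost eIF3m, eIF2Bdelta, eIF2Bepsilon and eIF2Bbeta. The count of 21 genes bound in all 3 replicates (34.2%) was 20 and 21 with 100 and 500 bp for a shared summit (32.2% and 35.2%). It was 15 with N/2 lines (21.0%) and 21 with the whole replicate lists (41.1%). The median signal of 535 was 513, 519 and 519 with windows of 250 bp, 500 bp and 2 kb, and 513 with the nearest TSS alone. It was 629 with the stronger 50%, 552 with summits found in all 3 replicates, 481 in the pooled relaxed list and 604 over the whole gene. Without each replicate in turn it was 552. No peaks were called again for the settings without a replicate, so these still used summits and signals derived from all 3 replicates. With 25 and 100 bp around the summit TTRYRYAA was at 6.90% and 24.1% of eIF summits and TATCGATA at 3.45% and 24.1%, while TTAYGTAA was at 6.90% with 100 bp. The cause of these shifts was not tested. With 29 summits, 1 more match moves a share by 3.45 percentage points. No paired analysis was possible because the series holds 1 group.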

Other observations

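Genes of elongation and release, the steps of translation that follow initiation, were bound at 9 of 11 (81.8%, 95% Wilson interval 52.3 to 94.9, against 44.1% of all genes), all 9 by summits found in all 3 replicates (34.2% of all genes). The 6 strongest were eRF3, a release factor (signal 1509, rank 547), eEF1delta and eEF1gamma, subunits of the elongation factor exchange complex (1264, rank 754, and 1033, rank 1093), eEF1alpha1, which delivers tRNAs to the ribosome (520, rank 3704), eEF5, once named eIF5A (419, rank 5011), and HBS1, a ribosome rescue factor (390, rank 5539). The genes eEF1alpha2 and eEF1beta had no promoter summit. The list had 2.00 TSSs per gene and a median length of 4252 bp, and the part of these in the count was not tested. It too was drawn up with earlier results of these data known, so its share and interval are descriptions only.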
